A study of Mus musculus with 34 samples.

Results

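Inflammasomes are protein platforms that assemble in the cytosol when a sensor meets microbial products or cell damage. Nlrp3, Nlrp1b, Nlrc4, Aim2 and Mefv encode sensors, Pycard encodes the adaptor ASC, Casp1 and Casp4 encode inflammatory caspases, and Gsdmd encodes gasdermin D, the protein that forms the pore of pyroptosis. These 9 genes were chosen by name, with earlier results of these data known. They were matched by symbol to the gene IDs of the count tables, where all 9 were found among 54532 IDs.

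RNA from the blood of wild-type (WT) mice was sequenced in 4 groups defined by treatment. Those analysed here were 7 mice given both ALY688 and lipopolysaccharide (ALY688+LPS), 4 given LPS, 10 given ALY688 and 9 given phosphate-buffered saline (PBS). Of 34 labelled samples 30 were used, and those left out belonged to the LPS and PBS groups. ALY688 is named in the series title as an agonist of the adiponectin receptor, and LPS comes from the outer membrane of Gram-negative bacteria. The study asked for blood markers of ALY688 and, in a sublethal LPS model, for its effect on inflammation. No dose, sampling time, sex or age is stated in the labels, and nothing there says that mice with and without LPS were handled together, so LPS and experiment cannot be told apart in the comparisons across LPS.

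An inflammasome response is usually described in 2 steps. In the priming step, signals such as LPS acting through TLR4 and NF-kappaB raise the transcripts of components and of pro-interleukin-1 beta. In the activation step, a sensor recruits ASC and caspase-1, which cuts the cytokines and gasdermin D. Caspase-11, the mouse protein encoded by Casp4, binds LPS in the cytosol directly and also cuts gasdermin D. In blood, neutrophils, monocytes and lymphocytes carry different sets of these components, and transcript counts measure neither cutting nor assembly.

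Libraries held 9554964 to 17338214 counts, of which globin transcripts took 18.5% to 64.4%, and 14351 to 19746 genes had a count. PBS mice 5, 6 and 9, ALY688 mouse 7 and ALY688+LPS mice 6 and 8 had fewer than 16000 such genes. Levels are CPM, counts relative to the library's size, after TMM scaling. A count of 3 corresponded to between 0.0688 CPM (LPS mouse 6) and 0.904 CPM (PBS mouse 5). Every member had at least 4 counts in every library. These limits cover counting error only.

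In mice given LPS, both caspases, the adaptor, the pore and the pyrin sensor Mefv rose and the DNA sensor Aim2 fell, and no member passed the test for ALY688. In LPS against PBS, 5 of 9 members were higher and 1 was lower at an adjusted p below 0.05 (edgeR quasi-likelihood test, Benjamini-Hochberg over all genes), against 38.7% of all genes tested (20.9% higher and 17.9% lower). In ALY688+LPS against ALY688, 6 of 9 were higher and 1 was lower, against 53% of all genes (26.4% higher and 26.6% lower). Without the 6 libraries of few detected genes, 7 members passed in either comparison. In ALY688+LPS against LPS and in ALY688 against PBS no member passed, against 0% of all genes in both. The members' median log2 fold change was 0.84 in LPS against PBS (all genes −0.04) and 1.07 in ALY688+LPS against ALY688 (all genes −0.05). The LPS group enters 2 of these comparisons, as does the PBS group, the ALY688 group and the ALY688+LPS group, so the comparisons are not independent of each other.

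**Figure D1:**
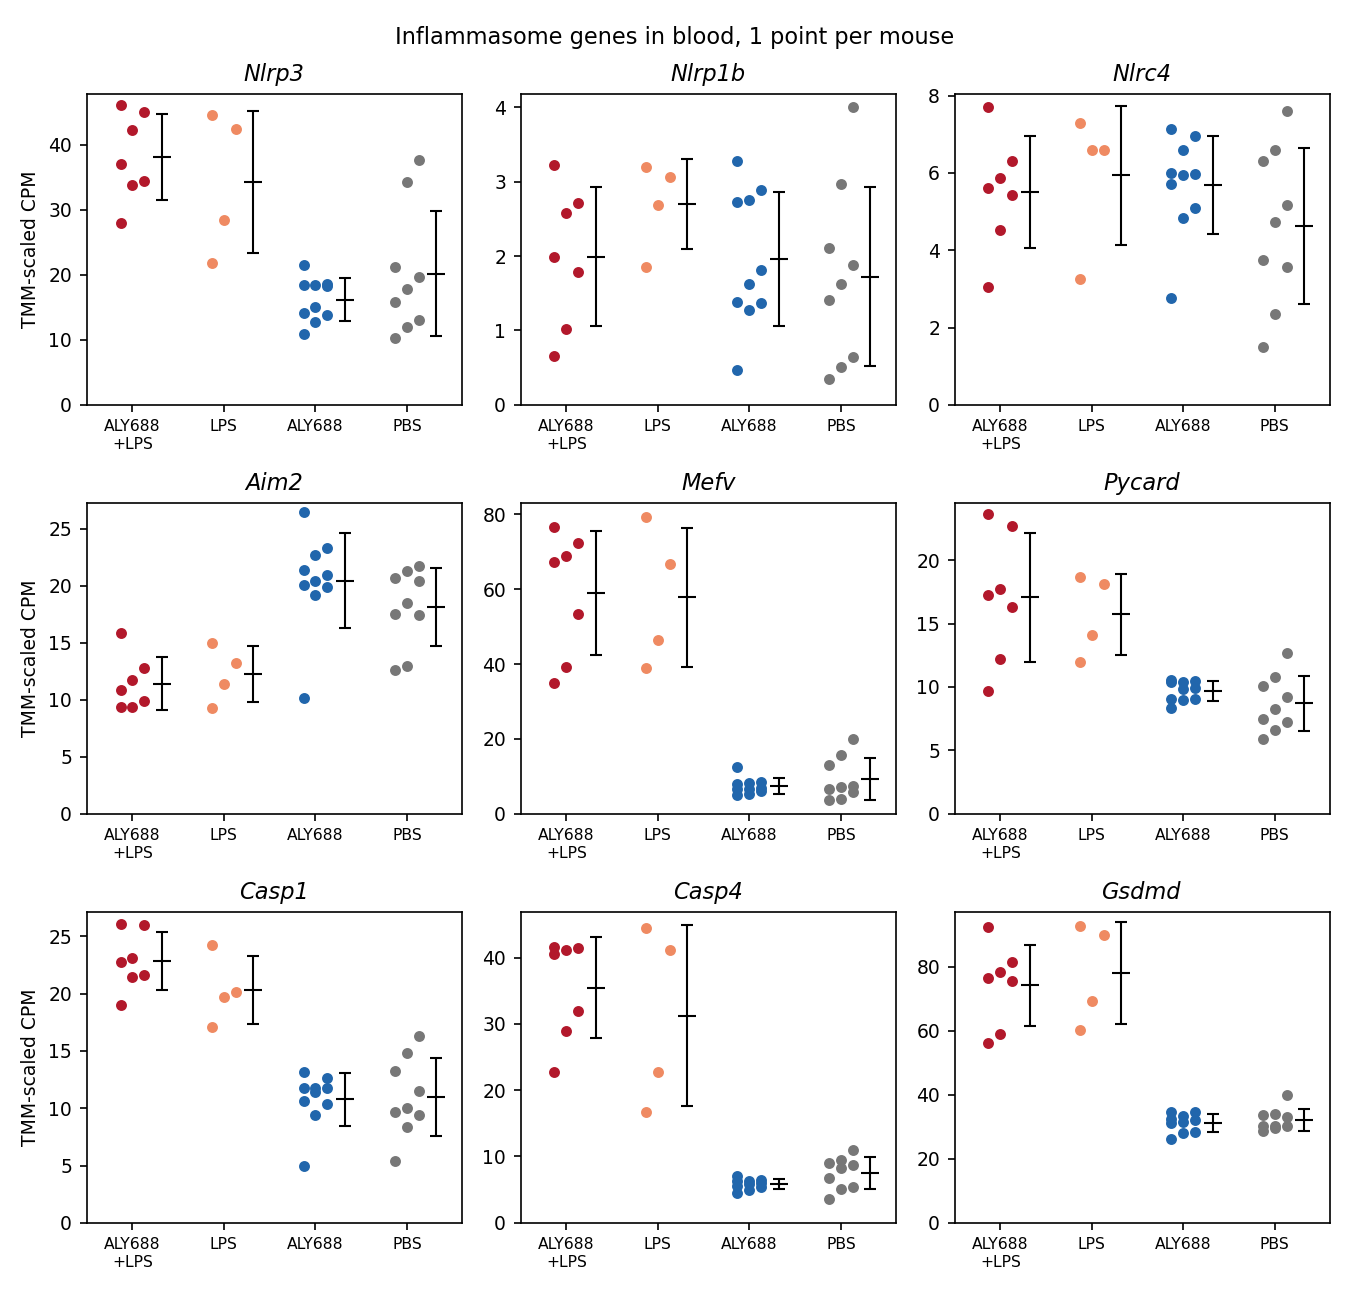
Level of each of the 9 genes in TMM-scaled CPM (vertical axis, from 0) in the ALY688+LPS, LPS, ALY688 and PBS groups; each point is 1 mouse, and the bar beside it is the mean ± SD. Mefv, Casp1, Casp4 and Gsdmd lay higher in all 11 mice given LPS than in any of the 19 without, and Aim2 lay mostly lower. The share of all genes that separate in this way was not counted.

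The promoters of 4 members are shown here, because Mefv and Casp4 had the largest rises, Nlrp3 is the sensor most often linked to priming, and Aim2 fell. Each sequence runs 5′ to 3′ in the direction of the gene, from 250 bases before the RefSeq start site to 50 after it, on GRCm38.p6. Capitals mark matches to 2 of the 4 motifs searched on both strands, the kappaB consensus (for NF-kappaB) and GAGGAAGT (for PU.1). The other motifs were a repeat of GAAA with any 2 bases between the copies (for interferon regulatory factors) and TTCNNNGAA (for STAT factors). The windows are chr16:3718075-3718374 (minus strand) for Mefv, chr9:5308599-5308898 (plus strand) for the first Casp4 start, chr11:59541319-59541618 (plus strand) for the first Nlrp3 start and chr1:173420354-173420653 (plus strand) for Aim2.
Mefv: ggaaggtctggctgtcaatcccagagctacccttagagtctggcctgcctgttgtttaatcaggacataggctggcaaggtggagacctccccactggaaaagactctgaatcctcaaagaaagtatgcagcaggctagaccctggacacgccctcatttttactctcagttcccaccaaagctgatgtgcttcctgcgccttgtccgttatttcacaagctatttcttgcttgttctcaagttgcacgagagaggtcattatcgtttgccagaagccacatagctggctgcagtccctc
Casp4: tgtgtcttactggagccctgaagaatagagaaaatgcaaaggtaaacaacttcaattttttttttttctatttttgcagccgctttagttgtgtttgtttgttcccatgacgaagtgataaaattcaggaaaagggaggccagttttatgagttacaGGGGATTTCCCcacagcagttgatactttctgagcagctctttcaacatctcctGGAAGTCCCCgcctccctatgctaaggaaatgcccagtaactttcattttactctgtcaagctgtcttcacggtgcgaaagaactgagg
Nlrp3: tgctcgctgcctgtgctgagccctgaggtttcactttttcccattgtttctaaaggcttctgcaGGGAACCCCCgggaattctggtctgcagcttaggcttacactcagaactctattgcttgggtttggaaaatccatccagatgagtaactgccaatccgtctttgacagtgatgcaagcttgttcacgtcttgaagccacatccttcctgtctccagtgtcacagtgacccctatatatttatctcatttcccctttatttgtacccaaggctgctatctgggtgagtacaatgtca
Aim2: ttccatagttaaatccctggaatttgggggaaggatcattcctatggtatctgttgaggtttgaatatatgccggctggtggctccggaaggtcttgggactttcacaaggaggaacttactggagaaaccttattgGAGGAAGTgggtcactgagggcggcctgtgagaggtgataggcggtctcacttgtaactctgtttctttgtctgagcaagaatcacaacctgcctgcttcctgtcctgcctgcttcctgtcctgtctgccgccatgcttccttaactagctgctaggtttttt
In Casp4, GGGGATTTCC at −93 to −84 and GGGATTTCCC at −92 to −83 overlap, and GGAAGTCCCC lies at −39 to −30 from the start site, counted as 0. The second annotated Casp4 start gives a window shifted by a few bases with the same matches. In Nlrp3, GGGAACCCCC lies at −186 to −177, and in Aim2 GAGGAAGT lies at −113 to −106. The windows of the second annotated Nlrp3 start and of the first Nlrp1b start held none of the 4 motifs. Mefv held none of the 4 motifs. Of 32851 promoter windows of this length, 8.46% held the kappaB consensus, 3.20% GAGGAAGT, 3.44% the GAAA repeat and 8.30% TTCNNNGAA. Promoters were found for 8 of the 9 members, in 11 windows. Besides these, GAGGAAGT was found in Pycard, as ACTTCCTC at −44 to −37, and before the second Nlrp1b start, at −96 to −89, and none of the 4 motifs in Casp1 and Nlrc4. A match describes the letters and is not evidence of binding.

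Among the sensors, Mefv (chr16:3707218-3718097 on GRCm38, minus strand) encodes pyrin, which responds when bacterial toxins inactivate RhoA GTPases. Mefv ran from 35.0 to 76.5 CPM (median 67.1) in the 7 ALY688+LPS mice and stood at 46.3, 38.8, 66.8 and 79.4 CPM in LPS mice 2, 6, 7 and 8. It ran from 4.96 to 12.5 (median 6.79) in the 10 ALY688 mice and from 3.77 to 19.996 (median 7.23) in the 9 PBS mice. The lowest mouse given LPS lay above the highest mouse without it. The log2 fold change was 2.65 ± 0.37 (SE) in LPS against PBS (adjusted p = 5.20e-05) and 3.01 ± 0.19 in ALY688+LPS against ALY688 (adjusted p = 1.54e-10). PBS mice 4, 7 and 9 held the highest Mefv of their group, at 15.8, 13.1 and 19.996 CPM, and mice 7 and 9 also its highest Nlrp3.

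Nlrp3 (chr11:59541568-59566956, plus strand) encodes the sensor that responds to potassium efflux and many kinds of damage. Its level ran from 27.9 to 46.1 CPM (median 37.1) in ALY688+LPS mice and was 28.4, 21.8, 44.5 and 42.4 CPM in LPS mice 2, 6, 7 and 8. It ran from 10.8 to 21.5 (median 16.7) in ALY688 mice and from 10.3 to 37.6 (median 17.8) in PBS mice. All 7 ALY688+LPS mice lay above all 10 ALY688 mice, whereas LPS and PBS mice overlapped. Nlrp3 rose in ALY688+LPS against ALY688 (log2 fold change 1.24 ± 0.13, adjusted p = 2.41e-07) and missed the threshold in LPS against PBS (0.78 ± 0.31, adjusted p = 0.0592). PBS mice 7 and 9 stood at 34.2 and 37.6 CPM, against at most 21.1 in the other 7. Leaving out PBS mouse 7, PBS mouse 9 or LPS mouse 6 took Nlrp3 past the threshold (log2 fold changes 0.92, 0.94 and 0.97, adjusted p = 0.0253, 0.0156 and 0.0367), as did leaving out the libraries of few detected genes (0.92, adjusted p = 0.0327). Without TMM Nlrp3 also passed in LPS against PBS (1.89, edgeR adjusted p = 0.000345), at 0.84 relative to the median of all genes on that scale. The interaction of ALY688 and LPS for Nlrp3, the ALY688 log2 difference with LPS minus that without, was 0.47 ± 0.33 (adjusted p = 0.549), so a difference between the 2 LPS comparisons was not shown.

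Aim2 (chr1:173350879-173466040, plus strand) encodes a sensor of double-stranded DNA in the cytosol. Aim2 ran from 9.39 to 15.9 CPM (median 10.9) in ALY688+LPS mice and was 11.4, 15.0, 9.32 and 13.3 CPM in LPS mice 2, 6, 7 and 8. It ran from 10.2 to 26.5 (median 20.7) in ALY688 mice and from 12.7 to 21.7 (median 18.5) in PBS mice. Of the 11 mice given LPS, 4 lay below every mouse without it, and the low end of the mice without LPS was set by ALY688 mouse 7 (10.2), PBS mouse 5 (12.7) and PBS mouse 9 (12.9), all libraries of few detected genes. Aim2 was the only member lower with LPS, by a log2 fold change of −0.57 ± 0.18 in LPS against PBS (adjusted p = 0.0205) and −0.84 ± 0.15 in ALY688+LPS against ALY688 (adjusted p = 7.32e-05). In ALY688+LPS against ALY688 the call was lost without TMM scaling (−0.77, adjusted p = 0.132, and −0.79 relative to the median of all genes). The call in LPS against PBS was lost without LPS mouse 2 (−0.54, adjusted p = 0.0667) and without LPS mouse 7 (−0.43, adjusted p = 0.0915). Scaling to library totals without TMM moved the median of all genes by 1.04 on the log2 scale in that comparison and gave Aim2 0.52 (adjusted p = 0.362), which is −0.52 relative to that median. B cell markers, which fell with LPS, are given below with the other cell types.

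Nlrc4 (chr17:74425438-74459142, minus strand) encodes the sensor that NAIP receptors recruit when they bind flagellin or secretion system proteins. Its level was low and alike in range, 3.05 to 7.71 CPM (median 5.61) in ALY688+LPS mice, 6.61, 7.29, 3.27 and 6.58 in LPS mice 2, 6, 7 and 8, 2.76 to 7.14 (median 5.96) in ALY688 mice and 1.51 to 7.61 (median 4.73) in PBS mice. Nlrc4 did not pass with LPS, at a log2 fold change of 0.32 ± 0.32 in LPS against PBS (95% interval −0.36 to 0.99, adjusted p = 0.456) and −0.05 ± 0.17 in ALY688+LPS against ALY688 (−0.40 to 0.30, adjusted p = 0.817). Nlrp1b (chr11:71153102-71230733, minus strand) encodes a sensor cut by anthrax lethal factor. It had the lowest level, 0.654 to 3.22 CPM (median 1.99) in ALY688+LPS mice, 3.06, 1.86, 2.69 and 3.20 in LPS mice 2, 6, 7 and 8, 0.472 to 3.28 (median 1.72) in ALY688 mice and 0.346 to 4.00 (median 1.63) in PBS mice. All groups overlapped, and the counts behind these levels were 4 to 40 reads in PBS mice. The log2 fold change of Nlrp1b was 0.67 ± 0.48 in LPS against PBS (95% interval −0.34 to 1.68, adjusted p = 0.284) and 0.13 ± 0.33 in ALY688+LPS against ALY688 (−0.57 to 0.83, adjusted p = 0.766). Changes of these 2 sensors that lie inside these intervals are not excluded by these libraries. Without TMM Nlrp1b passed in LPS against PBS (1.75, edgeR adjusted p = 0.0163), at 0.70 relative to the median of all genes on that scale. Nlrp1b has a close paralog, Nlrp1a, and how shared reads were counted is not stated, so its level is uncertain.

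The adaptor Pycard (chr7:127989708-127993867, minus strand) links sensors to caspase-1. Pycard ran from 9.64 to 23.7 CPM (median 17.3) in ALY688+LPS mice and was 18.1, 18.7, 14.1 and 12.0 CPM in LPS mice 2, 6, 7 and 8. It ran from 8.31 to 10.6 (median 9.89) in ALY688 mice and from 5.88 to 12.6 (median 8.29) in PBS mice. Of the 11 mice given LPS, 8 lay above every mouse without it. Pycard rose in LPS against PBS (log2 fold change 0.84 ± 0.20, adjusted p = 0.00375) and in ALY688+LPS against ALY688 (0.84 ± 0.14, adjusted p = 5.02e-05). Its call in LPS against PBS was lost with the mouse number as a block, though no label says that numbers pair mice. The values are given in the last part. With the globin percentage as a covariate this call was lost too (0.45, adjusted p = 0.405). That percentage was 18.5 to 43.7 in LPS mice and 45.2 to 64.4 in PBS mice, with no overlap. A gene on the opposite strand, Gm45205, shares 12.8% of the exon length of Pycard. It had 17 counts in all 30 libraries against 5834 for Pycard.

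The caspase genes lie next to each other on chromosome 9, Casp1 at chr9:5298517-5307265 and Casp4 at chr9:5308828-5336783, both on the plus strand. Casp1, whose product matures interleukin-1 beta and interleukin-18, ran from 19.0 to 26.1 CPM (median 22.7) in ALY688+LPS mice and was 19.7, 17.1, 20.2 and 24.3 in LPS mice 2, 6, 7 and 8. It ran from 4.96 to 13.2 (median 11.6) in ALY688 mice and from 5.39 to 16.3 (median 10.1) in PBS mice. The ranges with and without LPS did not meet. The log2 fold change of Casp1 was 0.87 ± 0.22 in LPS against PBS (adjusted p = 0.00526) and 1.07 ± 0.13 in ALY688+LPS against ALY688 (adjusted p = 7.42e-07). With the globin percentage, which separates the same groups, as a covariate the first of these calls was lost (0.86, adjusted p = 0.154).

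Casp4 ran from 22.8 to 41.5 CPM (median 40.5) in ALY688+LPS mice and was 22.8, 16.6, 44.5 and 41.1 CPM in LPS mice 2, 6, 7 and 8. It ran from 4.49 to 7.00 (median 5.92) in ALY688 mice and from 3.57 to 11.02 (median 8.33) in PBS mice. LPS mice 2 and 6 lay well below mice 7 and 8, and still above every mouse without LPS. Casp4 rose by 2.07 ± 0.28 on the log2 scale in LPS against PBS (adjusted p = 2.92e-05) and by 2.61 ± 0.13 in ALY688+LPS against ALY688 (adjusted p = 5.67e-12). Its window above held 3 matches to the kappaB consensus, of which the first 2 overlap. The windows of Casp1, its neighbour, and of Mefv, the member that rose most, held none. The part of such matches in the rises was not tested. Casp4 and Casp1 both rose, and no test compared the size of their rises.

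Gsdmd (chr15:75862327-75867408, plus strand), the pore-forming substrate of both caspases, had the highest level per kilobase of exon in every group. It ran from 56.1 to 92.4 CPM (median 76.4) in ALY688+LPS mice and was 69.1, 60.1, 92.8 and 89.8 CPM in LPS mice 2, 6, 7 and 8. It ran from 26.2 to 34.7 (median 31.8) in ALY688 mice and from 28.8 to 40.0 (median 30.3) in PBS mice. Gsdmd varied little between mice without LPS, with an SD of 2.88 CPM in ALY688 mice and 3.48 CPM in PBS mice, and its ranges with and without LPS lay far apart. The log2 fold change was 1.28 ± 0.15 in LPS against PBS (adjusted p = 8.86e-06) and 1.25 ± 0.10 in ALY688+LPS against ALY688 (adjusted p = 3.03e-09).

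The order of the members by level, in CPM per kilobase of exon, differed with LPS. Exon length counts the merged exons of all annotated transcripts, 1497 bases for Casp1, 3710 for Casp4 and 3800 for Pycard. The order between genes therefore depends on the annotation. In ALY688+LPS mice, for example, Casp4 was above Casp1 in mean CPM (35.4 against 22.9) and below it per kilobase. Gsdmd averaged 31.2 ± 5.33 CPM per kilobase in ALY688+LPS mice and 32.8 ± 6.69 in LPS mice, and it was followed by Mefv (18.1 ± 5.08 and 17.8 ± 5.72), Casp1 (15.3 ± 1.69 and 13.6 ± 1.98) and, close together, Casp4 and Nlrp3. Without LPS, Gsdmd averaged 13.1 ± 1.21 in ALY688 mice and 13.5 ± 1.46 in PBS mice, and it was followed by Casp1 (7.21 ± 1.55 and 7.33 ± 2.27), Aim2 (5.84 ± 1.19 and 5.18 ± 0.974) and Nlrp3 (3.99 ± 0.826 and 4.97 ± 2.38). Mefv stood at rank 2 in both groups given LPS, against rank 6 in ALY688 mice and rank 5 in PBS mice, and Aim2 at rank 7 with LPS against rank 3 without. Gsdmd was above the next member in every library of its group, and its range did not overlap that of the next member in any group. The ranks behind it were less distinct. With LPS, the ranges of Mefv and Casp1, of Casp4 and Nlrp3 and of Pycard and Aim2 overlapped in both groups, and those of Casp4 and Pycard in LPS mice. Mefv was above Casp1 in 5 of 7 ALY688+LPS mice and in 4 of 4 LPS mice. Without LPS, every pair of neighbours from Casp1 down to Nlrc4 overlapped in both groups. Casp1 was above Aim2 in 10 of 10 ALY688 mice and 7 of 9 PBS mice, and Aim2 above Nlrp3 in 9 of 10 and 6 of 9. Nlrc4 and Nlrp1b were last in every group.

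No member passed the test between ALY688+LPS and LPS mice, so a difference was not shown, and the ranges of all 9 overlapped. The share of all genes whose ranges overlap between these groups was not counted. In ALY688+LPS against LPS, log2 fold changes ran from −0.37 ± 0.34 for Nlrp1b to 0.18 ± 0.26 for Casp4, with adjusted p from 0.913 to 0.997, and no member had an unadjusted p below 0.05. Casp1 was measured most closely, at 0.17 ± 0.12 (95% interval −0.09 to 0.44), and Gsdmd stood at −0.07 ± 0.17 (−0.44 to 0.30). Pycard was at 0.12 ± 0.23, Nlrp3 at 0.15 ± 0.20, Mefv at 0.03 ± 0.25, Aim2 at −0.10 ± 0.17 and Nlrc4 at −0.11 ± 0.24. The 95% intervals of 8 of 9 members lay within a 2-fold difference either way, and that of Nlrp1b reached −1.11. Over all genes edgeR called 0 of 12741, with 463 at an unadjusted p under 0.05, DESeq2 called 0 (635) and limma-voom 0 (510). Totals without TMM shift the median of all genes by −0.49 here, and relative to that median Nlrp3 was 0.30, Mefv 0.17, Pycard 0.17, Casp1 0.23 and Casp4 0.38, each of the same sign as with TMM, while Gsdmd was 0.05, of the other sign.

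ALY688 alone gave no call either. In ALY688 against PBS, log2 fold changes ran from −0.36 ± 0.17 for Casp4 to 0.25 ± 0.20 for Nlrc4. Casp4 had an unadjusted p of 0.0459 and an adjusted p of 0.442. Mefv stood at −0.34 ± 0.29, Nlrp3 at −0.32 ± 0.22, Pycard at 0.12 ± 0.12, Aim2 at 0.16 ± 0.13 and Nlrp1b at 0.18 ± 0.40. Gsdmd, at −0.05 ± 0.07 (95% interval −0.21 to 0.10), and Casp1, at −0.04 ± 0.17 (−0.38 to 0.31), lay nearest to 0. The intervals of 8 of 9 members lay within a 2-fold difference, that of Nlrp1b reaching 1.02. Over all genes edgeR called 0 of 11708 (1250 at an unadjusted p under 0.05), DESeq2 0 (1656) and limma-voom 0 (977). Without TMM the median of all genes shifts by 0.50, and relative to it Casp4 was −0.30, Mefv −0.24, Nlrp3 −0.21, Casp1 −0.04 and Gsdmd −0.07, of the same sign as with TMM.

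The interaction, which asks whether the ALY688 difference itself depended on LPS, passed for no member. It ran from −0.55 ± 0.59 for Nlrp1b to 0.53 ± 0.30 for Casp4 on the log2 scale. Casp4 had the smallest unadjusted p, 0.0857 (adjusted p = 0.506), and its interval ran from −0.08 to 1.15. Pycard and Gsdmd lay nearest to 0, at −0.00 ± 0.24 and −0.03 ± 0.17. The 95% intervals of 4 of 9 members lay within a 2-fold difference. Over all genes the median half-width of the interval was 0.70 on the log2 scale, against 0.38 to 0.59 in the 4 comparisons between groups. Over all genes edgeR called 0 of 13476, or 0% (1217 at an unadjusted p under 0.05), DESeq2 4 (1558) and limma-voom 0 (1054).

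**Figure D2:**
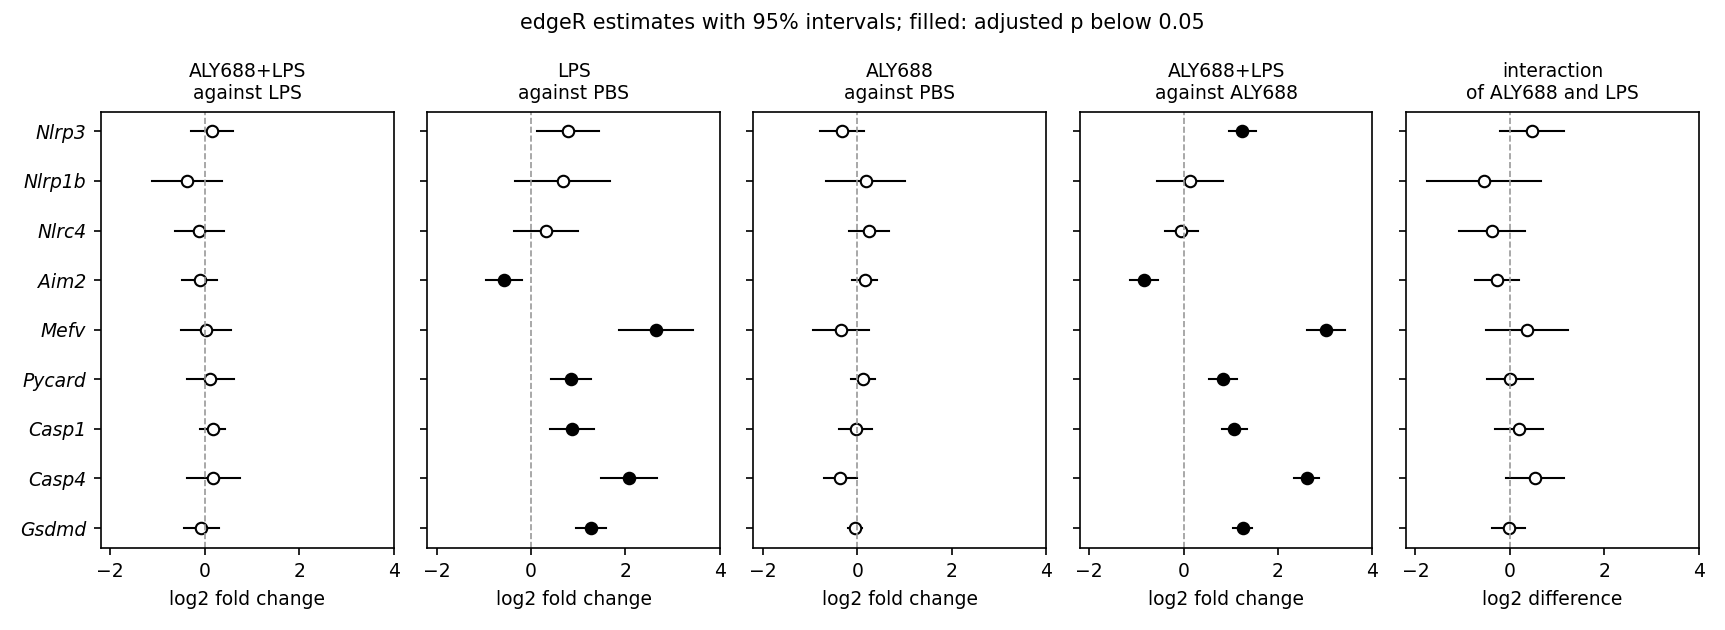
Log2 fold change of each member (horizontal axis) in the 4 comparisons between groups and the log2 difference of the interaction, with 95% intervals from edgeR; filled points have an adjusted p below 0.05. Filled points stand only in the 2 comparisons across LPS, 6 of 9 in LPS against PBS and 7 of 9 in ALY688+LPS against ALY688, with Aim2 alone below 0.

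Markers of blood cell types moved with LPS over the same mice. All 8 neutrophil markers were higher in LPS against PBS (median log2 fold change 3.13) and in ALY688+LPS against ALY688 (3.80), and their summed level was 5516 to 13064 CPM in ALY688+LPS mice, 4061 to 13911 in LPS mice, 525 to 1427 in ALY688 mice and 577 to 2183 in PBS mice. Of 8 monocyte markers 5 were higher and 1 was lower in each, with sums of 824 to 1034 CPM in ALY688+LPS mice, 834 to 1235 in LPS mice, 313 to 683 in ALY688 mice and 330 to 1535 in PBS mice. All 5 B cell markers were lower (medians −2.65 and −2.38), with sums of 89.6 to 465 CPM in ALY688+LPS mice, 71.9 to 190.2 in LPS mice, 553 to 1202 in ALY688 mice and 410 to 1355 in PBS mice. All 5 T cell markers were lower too (medians −2.28 and −1.83), at 27.2 to 50.8 CPM in ALY688+LPS mice, 17.7 to 28.7 in LPS mice, 89.4 to 205.8 in ALY688 mice and 48.7 to 172.8 in PBS mice. No marker of these types was at 0 in any group, and none was called in the comparisons for ALY688. Of 5 natural killer cell markers 3 were higher in LPS against PBS (median 0.90) and 1 in ALY688+LPS against ALY688 (0.24), with sums of 60.9 to 191.8 CPM in ALY688+LPS mice, 151.6 to 262 in LPS mice, 50.1 to 125.6 in ALY688 mice and 31.3 to 120.1 in PBS mice. Of 5 erythroid markers none was called in LPS against PBS (median −1.73) and 1 was higher in ALY688+LPS against ALY688 (0.07), and the globin percentage was 26.3 to 54.3 in ALY688+LPS mice and 42.2 to 60.8 in ALY688 mice. The part of these cell types in the members' changes was not tested, and in whole blood fewer cells of a type and less RNA per cell cannot be told apart. Markers of other tissues summed to at most 8.78 CPM, and Krt5, a skin keratin, was at 0 in the ALY688+LPS, LPS and PBS groups.

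Ratios of read counts within a library do not depend on its scaling. Those described here were chosen after the levels were seen and are given without a test. Aim2 had fewer reads than Casp1 in every mouse given LPS and more in every mouse without, the ratio being 0.407 to 0.741 in ALY688+LPS mice, 0.462 to 0.879 in LPS mice, 1.68 to 2.28 in ALY688 mice and 1.304 to 3.43 in PBS mice. Mefv against Nlrp3 was 1.06 to 2.03 in ALY688+LPS mice, 1.501 to 1.87 in LPS mice, 0.350 to 0.884 in ALY688 mice and 0.298 to 0.749 in PBS mice, again with no overlap across LPS. Casp4 against Casp1 was 1.06 to 1.78 in ALY688+LPS mice, 0.973 to 2.20 in LPS mice, 0.354 to 1.17 in ALY688 mice and 0.355 to 1.00 in PBS mice, where LPS mouse 6, the lowest of its group, lay among the highest mice without LPS. Such a ratio shows an unequal change of the 2 genes and not which of them moved. The share of all gene pairs whose ratios separate across LPS was not counted.

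Nlrp3 set against Csf3r, the receptor for the neutrophil growth factor G-CSF and one of the 8 neutrophil markers, went the other way from its level. Csf3r itself averaged 1188 CPM in ALY688+LPS mice, 1205 in LPS mice, 293 in ALY688 mice and 347 in PBS mice. It was also, as given below, among the genes most like Nlrp3 over these libraries. A gene that rises less than Csf3r has a lower ratio to it, so a lower ratio does not show a fall of Nlrp3. The ratio was 0.0266 to 0.0381 in ALY688+LPS mice, 0.0247 to 0.0396 in LPS mice, 0.0461 to 0.0648 in ALY688 mice and 0.0504 to 0.0690 in PBS mice, lower in all 11 mice given LPS than in any of the 19 without. Against the same marker Mefv had a median of 0.0539 in ALY688+LPS mice, 0.0492 in LPS mice, 0.0226 in ALY688 mice and 0.0264 in PBS mice, and Casp4 had 0.0317, 0.0262, 0.0184 and 0.0234 in the same order, both with higher medians with LPS. The other 6 members had lower medians with LPS, and the ranges of these 8 members overlapped across LPS. Against Ptprc, the pan-leukocyte marker CD45, Nlrp3 stood at 0.0404 to 0.0754 in ALY688+LPS mice, 0.0384 to 0.0680 in LPS mice, 0.0207 to 0.0639 in ALY688 mice and 0.0236 to 0.0876 in PBS mice, with overlap. Aim2 against Ptprc had a median of 0.0166 in ALY688+LPS mice, 0.0205 in LPS mice, 0.0436 in ALY688 mice and 0.0416 in PBS mice, and the highest mouse given LPS (0.0265) lay below the lowest mouse without it (0.0301). Mefv and Casp4 against Ptprc did not overlap across LPS either, and lay higher with it. Their lowest mice given LPS stood at 0.05064 and 0.02931, against at most 0.04655 and 0.02573 without it. The remaining members overlapped. The share of all genes that separate against Csf3r or Ptprc was not counted. Ptprc itself differed by a log2 fold change of 0.50 in LPS against PBS, which did not pass. It rose by 0.46 in ALY688+LPS against ALY688.

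**Figure D3:**
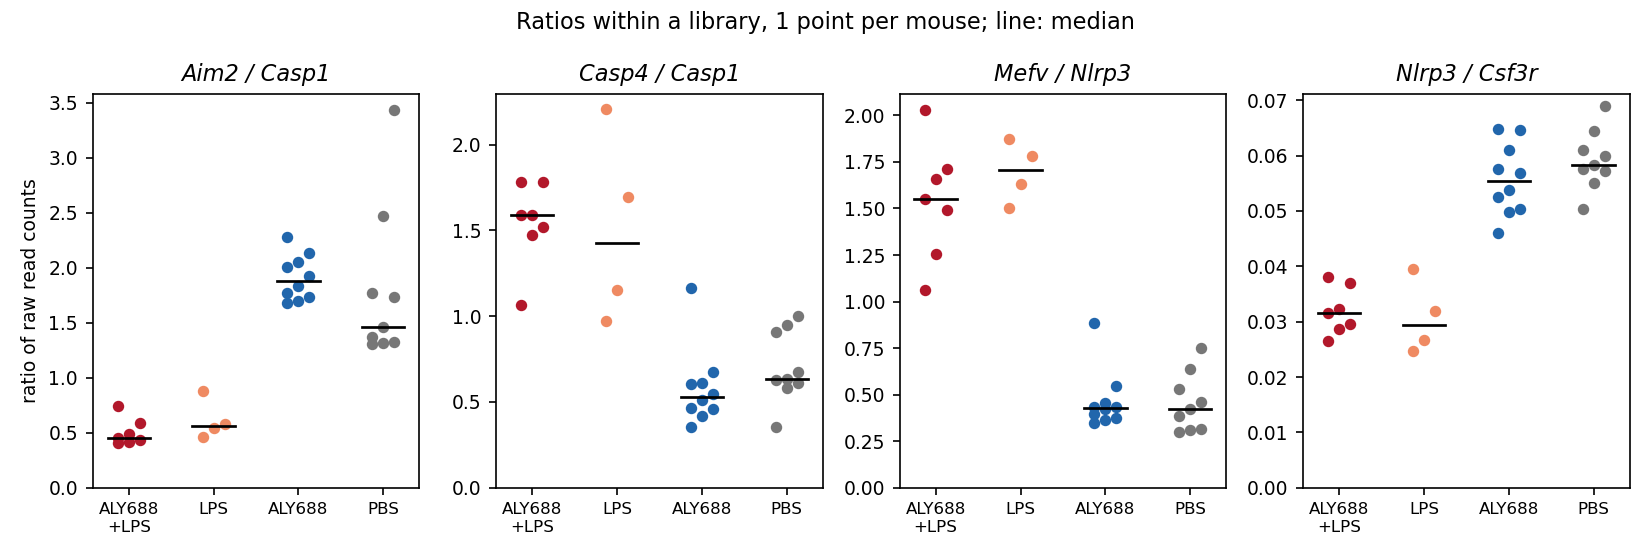
Ratio of raw read counts of Aim2 to Casp1, Casp4 to Casp1, Mefv to Nlrp3 and Nlrp3 to Csf3r (vertical axes, from 0), 1 point per mouse, with the median of each group as a line, in the ALY688+LPS, LPS, ALY688 and PBS groups. Mice with and without LPS do not overlap for Aim2 to Casp1, Mefv to Nlrp3 and Nlrp3 to Csf3r. They do overlap for Casp4 to Casp1. The share of all gene pairs that separate in this way was not counted.

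For each member, the genes most like it were sought among 10706 genes by the Pearson correlation of log2 CPM over the 30 libraries, which share the LPS difference, so r is also given after the group means were removed. Nlrp3 was most like Tnfaip2 (r = 0.96, and 0.94 within groups), Rab11fip1 (0.96 and 0.89) and Csf3r (0.95 and 0.93). Mefv was most like Myo1f (0.99 and 0.90), Rab32 and Emilin2, and Casp4 like Ppp2r5a (0.98 and 0.81), Lcp1 and Trim30d. Gsdmd was close to Gpi1 (0.98 and 0.78) and Lipg. Casp1 was most like Usp47 (0.93 and 0.78), Slk and Wls, and Pycard like Capg (0.92 and 0.78), Psmc1 and Copb2. Aim2 was most like Cers4 (0.91 and 0.80), Ktn1 and Fcamr, Nlrc4 like Csnk2a1 (0.88 and 0.88), Polr2b and Riok1, and Nlrp1b like Sulf2 (0.81 and 0.79), Arsa and Cebpa. Among the members themselves, Casp4 and Gsdmd reached 0.95 over all libraries and 0.55 within groups, and Mefv and Nlrp3 0.89 and 0.76. Nlrc4 and Aim2 stood at 0.34 over all libraries and 0.68 within groups. These values are descriptions, since depth, globin share and cell makeup also vary from library to library.

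Beyond the 9 members, 41 genes that act before, beside or after them were described by role. The list was chosen with earlier results of these data known. Its shares beside those of all genes are therefore descriptions and not a test. Values in pairs are log2 fold changes in LPS against PBS and then in ALY688+LPS against ALY688, and each gene said to have risen or fallen had an edgeR adjusted p of 0.0341 or less there. Of 35 with enough counts, 18 were higher and 5 lower in LPS against PBS (median log2 fold change 0.82), against 20.9% and 17.9% of all genes tested. In ALY688+LPS against ALY688, 23 were higher and 2 lower (0.84), against 26.4% and 26.6%. The 18 higher in the first were all higher in the second too. None of 37 passed in ALY688+LPS against LPS and none of 34 in ALY688 against PBS. Il1a, Naip1, Nlrp10, Casp12, Gsdma and Gsdmc had too few counts in both comparisons across LPS.

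Among the cytokines that caspase-1 matures, Il1b, interleukin-1 beta, rose by 1.95 ± 0.42 in LPS against PBS (adjusted p = 0.00182) and by 2.73 ± 0.23 in ALY688+LPS against ALY688 (adjusted p = 6.47e-09). Il18, interleukin-18, passed in ALY688+LPS against ALY688 (0.63 ± 0.24, adjusted p = 0.0305) and not in LPS against PBS (0.49 ± 0.39, adjusted p = 0.334), and the first call was lost without ALY688 mouse 1 or without ALY688+LPS mouse 6, 7 or 10 (adjusted p up to 0.0686). All 3 NAIP receptors tested rose in both, with Naip2, which detects secretion system rods, at 1.68 ± 0.21 and 1.76 ± 0.12, although Nlrc4, which they act through, did not pass. Naip5 and Naip6, which bind flagellin, rose by 0.82 ± 0.27 and 1.04 ± 0.21 in LPS against PBS. Without LPS mouse 8 the adjusted p of Naip5 there was 0.0859. The Naip genes are close paralogs and their reads may be split between them. Of the other sensors and their partners, Nlrp12 (1.82 ± 0.35 and 2.21 ± 0.14), Nlrp1a (1.15 ± 0.34 and 1.32 ± 0.17) and Pstpip1, a binding partner of pyrin (1.01 ± 0.20 and 1.05 ± 0.11), rose in both comparisons. Nlrp6, a sensor best known from the gut lining, was lower in LPS against PBS (−2.34 ± 0.80, adjusted p = 0.0310), the lowest value of the list there, and is named after its values were seen. It ran from 2.64 to 22.9 CPM in LPS mice and from 7.94 to 173 CPM in PBS mice, with overlap. Its call was lost without LPS mouse 2, 6 or 8 (adjusted p = 0.0724 to 0.0945), without the libraries of few detected genes (−1.28, adjusted p = 0.0846), without the low count filter (adjusted p = 0.108) and without TMM (adjusted p = 0.0682), and with the globin percentage as a covariate its value was 1.31 (adjusted p = 0.350).

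Among genes that license or drive sensors, Kcnk6, a potassium channel, rose (1.92 ± 0.27 and 1.91 ± 0.19) and Panx1, a channel for ATP, fell by 1.58 ± 0.33 in LPS against PBS and by 0.93 ± 0.22 in ALY688+LPS against ALY688. Nek7, the kinase that NLRP3 needs for assembly, was lower in LPS against PBS (−0.56 ± 0.14, adjusted p = 0.00454) and not called in ALY688+LPS against ALY688. Of the inhibitors, Trim30a rose (1.38 ± 0.25 and 1.65 ± 0.13) and Serpinb1a, which restrains caspase-1 and neutrophil proteases, fell by 0.80 ± 0.28 and by 1.06 ± 0.15. Without TMM, Nek7 and Serpinb1a turned to 0.57 and 0.15 in LPS against PBS, which is −0.48 and −0.89 relative to the median of all genes on that scale. With the globin percentage as a covariate the LPS against PBS calls of Panx1, Nek7 and Serpinb1a were lost (−0.45, −0.27 and −1.27, adjusted p = 0.581, 0.455 and 0.0778), and that of Serpinb1a was also lost without PBS mouse 2 or 8 or without LPS mouse 6, 7 or 8 (−0.78 to −0.59, adjusted p = 0.0510 to 0.122). Dpp9, which holds NLRP1 inactive, stood at 0.22 ± 0.08 in ALY688+LPS against ALY688 (adjusted p = 0.0301), a call lost without ALY688 mouse 2, 4, 5 or 7 or without ALY688+LPS mouse 1 or 7 (adjusted p up to 0.0638).

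Interferon-induced GTPases and their partners tune how cytosolic LPS reaches caspase-11, and this group held the largest rise of the list. Gbp2, a guanylate-binding protein, rose by 3.82 ± 0.47 in LPS against PBS and by 4.54 ± 0.39 in ALY688+LPS against ALY688, and without LPS mouse 7 the first was 2.64. Gbp7 (1.86 ± 0.28 and 2.35 ± 0.27) rose as well, as did Irgm2, which restrains caspase-11 responses (1.37 ± 0.24 and 1.68 ± 0.11). In that group of 7 genes, 3 were higher and 1 lower in LPS against PBS, and 5 were higher in ALY688+LPS against ALY688. The 1 lower gene was Gabarapl2, a member of the ATG8 family and not a GTPase, at −2.12 ± 0.63 (adjusted p = 0.0146), named after its values were seen. Its call was lost without LPS mouse 2 (adjusted p = 0.0503), and with the globin percentage as a covariate its value was 0.84 (adjusted p = 0.317). Among genes of linked forms of cell death all 4 rose in both, including Mlkl, the pore former of necroptosis (3.07 ± 0.35 and 3.45 ± 0.35), Zbp1, a sensor of Z-form nucleic acid (1.95 ± 0.23 and 2.14 ± 0.18), and Ripk1 (1.01 ± 0.15 and 0.98 ± 0.10). Gsdme, another gasdermin, rose by 1.86 ± 0.27 and 1.91 ± 0.14, against 1.28 and 1.25 for Gsdmd, and no test compared the pair.

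**Figure D4:**
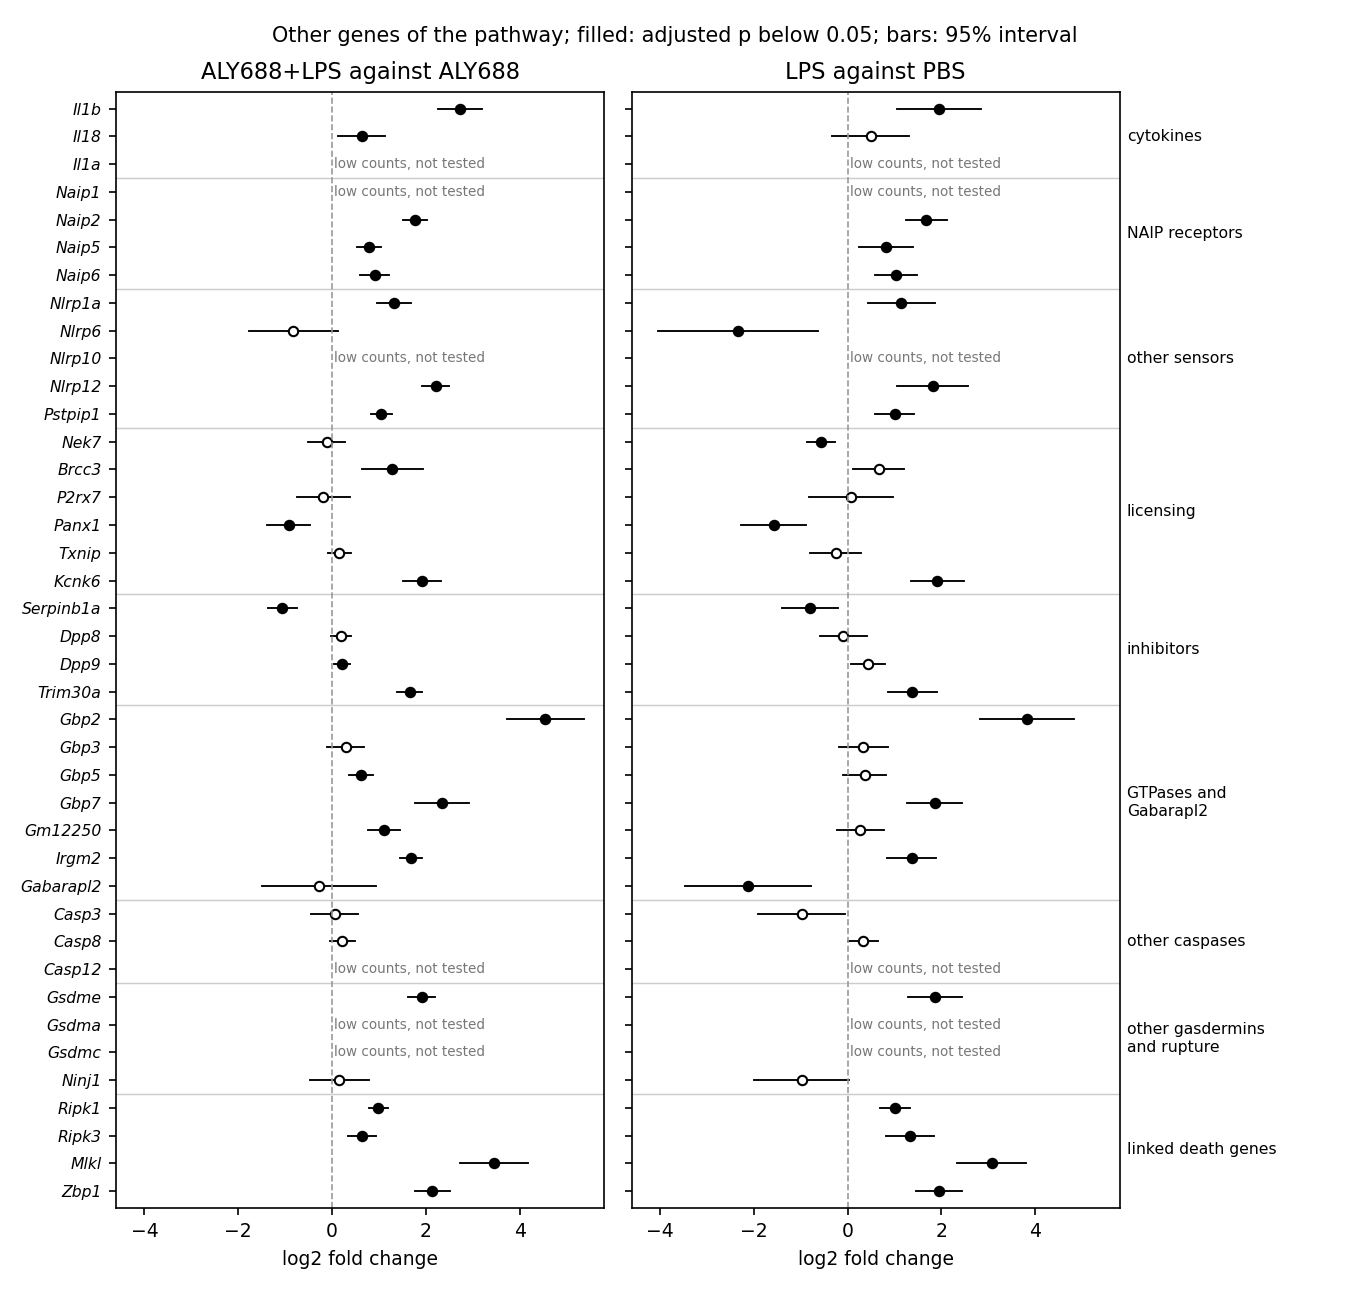
Log2 fold changes with 95% intervals of other genes of the pathway, grouped by role, in ALY688+LPS against ALY688 (left) and LPS against PBS (right); filled points have an adjusted p below 0.05. Most filled points lie to the right of 0, with Gbp2 and Mlkl farthest, and Serpinb1a and Panx1 lie to the left in both.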

How the data were processed

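The authors deposited whole-number counts of reads per gene, 1 table per mouse. Of 34 labelled samples 30 were used; LPS mice 3, 4 and 5 and PBS mouse 10 are not analysed here. The submitters' processing notes name HISAT2 2.0.5, an aligner, and featureCounts 1.5.0-p3, a read counter. The build, the annotation and the strand setting were not given in the sources used here, so reads of a gene and of one overlapping it on the other strand cannot be told apart. Messenger RNA was captured with poly-T beads, per the labels' protocols. Symbols, coordinates and exon lengths came from GENCODE M21 (GRCm38), which named 54495 of 54532 IDs, and promoters from RefSeq.

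Each mouse was 1 replicate; the closest pair of libraries in a group, ALY688 mice 4 and 5, had a chi-square per degree of freedom of 8.75, far above sampling noise. Low counts were removed with filterByExpr, and the 2 groups compared were fitted with TMM factors and the two-sided quasi-likelihood test of edgeR 4.0.16 in R 4.3.3 (all 4 groups for the interaction). A gene was called at an adjusted p below 0.05 (Benjamini-Hochberg). All 9 members passed the filter in every comparison. Intervals are 95%. Alternatives were DESeq2 1.42.0, limma-voom (limma 3.58.1), no TMM, globin genes left out, no filter, no libraries of few detected genes, a globin covariate, the mouse number as a block and leaving out each mouse. The fits were tested on simulated data. Levels are TMM-scaled CPM, divided by exon length where genes are compared.

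The members, the list of 41 pathway genes and the markers were chosen with earlier results of these data known. All members were named; from each role group and comparison, the 3 genes of smallest unadjusted p could be named, and for likeness the 3 genes of highest r averaging at least 1 CPM, predicted genes left out. A few genes that these rules named are not reported here.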

Additional observations from a re-analysis of the deposited data

Results flagged for a closer look

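Each member was checked in each group for 1 mouse lying far from the rest (a gap to the nearest other mouse large against the whole range, by Dixon's 95% value). Of 36 groups 5 held such a mouse, and chance gives about 1 in 20 groups. Nlrc4, Aim2 and Casp1 were lowest in ALY688 mouse 7, at 2.76, 10.2 and 4.96 CPM, against 4.84, 19.2 and 9.38 in the next mouse. That library had 14630 genes with a count, the fewest of its group, and the part of this in its levels was not tested. Mefv was highest in ALY688 mouse 3, at 12.5 CPM against 8.55 in the next. Gsdmd was highest in PBS mouse 3, at 40.0 CPM against 33.9 in the next.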

How the results depend on the processing

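The number of members passing stayed within 1.5 times of that reported under every alternative. In LPS against PBS, 6 passed, and 5 (globin covariate) to 7 (limma-voom, no TMM, no libraries of few detected genes) did under the others. A like number can hold other members. The 3 members not called in LPS against PBS had 24 values under the 8 alternatives besides leaving out a mouse. Of these values 7 passed with the sign reported. Without TMM, Aim2 did not pass there, while Nlrp3 and Nlrp1b did (1.89 and 1.75, edgeR adjusted p = 0.000345 and 0.0163). Leaving out 1 mouse gave 5 to 7. In ALY688+LPS against ALY688, 7 passed, 6 without TMM, where Aim2 did not, and 7 whichever mouse was left out. The other comparisons gave 0 throughout. Mefv, Casp4 and Gsdmd passed in both LPS comparisons under every alternative run.

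Values of the opposite sign to those reported, on the log2 scale, were these. Without TMM they were, in ALY688+LPS against LPS, −0.19 for Nlrp3, −0.32 for Mefv, −0.33 for Pycard, −0.27 for Casp1 and −0.11 for Casp4. In LPS against PBS they were 0.52 for Aim2, 0.15 for Serpinb1a and 0.57 for Nek7. In ALY688 against PBS they were 0.28 for Nlrp3, 0.26 for Mefv, 0.45 for Casp1, 0.19 for Casp4 and 0.43 for Gsdmd, in ALY688+LPS against ALY688 0.022 for Nlrc4, and for the interaction −0.48 for Nlrp3, −0.58 for Mefv, −0.72 for Casp1 and −0.31 for Casp4. That scale shifts all genes alike, and relative to the median of all genes each of these had the sign reported, at 0.17 to 0.38 in ALY688+LPS against LPS, −0.52, −0.89 and −0.48 in LPS against PBS, −0.30 to −0.043 in ALY688 against PBS, −0.0035 for Nlrc4 and 0.28 to 0.69 for the interaction. Gsdmd in ALY688+LPS against LPS (0.047), and Gsdmd (0.12) and Pycard (0.12) for the interaction, turned sign on the relative scale instead. With the globin covariate they were 0.023 for Nlrc4 and 0.013 for Aim2 in ALY688+LPS against LPS, −1.14 for Nlrc4, 1.31 for Nlrp6 and 0.84 for Gabarapl2 in LPS against PBS, 0.048 for Mefv in ALY688 against PBS, and 0.028 for Nlrc4, 0.24 for Pycard and 0.022 for Gsdmd for the interaction. Without the libraries of few detected genes, Pycard was −0.034 in ALY688 against PBS, and 0.27, with Gsdmd 0.017, for the interaction. Limma-voom gave −0.0063 for Mefv in ALY688+LPS against LPS, and for the Pycard interaction it gave 0.035 and DESeq2 0.036.

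Leaving out 1 mouse turned signs in ALY688+LPS against LPS for Aim2 (−0.20 to 0.0095), Casp4 (−0.031 to 0.41), Gsdmd (−0.18 to 0.030), Mefv (−0.13 to 0.20), Nlrp3 (−0.021 to 0.31) and Pycard (−0.0021 to 0.21), in ALY688 against PBS for Casp1 (−0.12 to 0.048), in ALY688+LPS against ALY688 for Nlrc4 (−0.12 to 0.045) and Nlrp1b (−0.019 to 0.28), and for the interaction of Gsdmd (−0.14 to 0.062) and Pycard (−0.12 to 0.087). None of these passed a test.

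No label says that mouse numbers pair the groups, and the groups were treated as unpaired. Of the same-numbered pairs, 2 of 9, 2 of 7, 1 of 3 and 2 of 4 deviated together with a correlation over 0.1. So few pairs cannot exclude a shared animal or day. With the number as a replicate block, 6 members passed in LPS against PBS, where Nlrp3 passed (0.91, adjusted p = 0.0471) and Pycard did not (0.68, adjusted p = 0.0949), nor did Gabarapl2 (−2.11, adjusted p = 0.0555), and 7 in ALY688+LPS against ALY688. Aim2 also missed the threshold in LPS against PBS without the filter (−0.44, adjusted p = 0.154). With 4 LPS mice, the median half-width of the 95% interval over all genes was 0.53 on the log2 scale in ALY688+LPS against LPS, which limits the differences that can be seen.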
